A study of Rattus norvegicus with 6 samples.

Results

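Collagens are the main structural proteins of the extracellular matrix, and this account covers 9 collagen genes whose chains form no banded fibril of their own. They were Col13a1, Col25a1, Col22a1, Col12a1, Col4a5, Col8a2, Col4a1, Col6a1 and Col6a2. Their 13 probe sets, of 31099 on the array, were all those whose platform annotation gave exactly 1 gene symbol equal to one of these names. The genes were chosen in part by their lower MAS5 signals with AEBSF on these same arrays, so their differences between the groups are given as a description, with standard errors for precision and with no call or p-value. They are of more kinds than transmembrane, basement membrane and fibril-associated chains: Col8a2 encodes a short-chain network collagen, and Col6a1 and Col6a2 encode chains of beaded microfilaments.

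RNA was measured in UMR106-01 cells, which come from a rat bone tumour and behave in culture like osteoblasts, the cells that build bone, plated in medium with 10% fetal bovine serum. At 64 h the AEBSF cultures were re-fed with medium holding 6.5 mM beta-glycerol phosphate and 400 µM AEBSF, an inhibitor of serine proteases, and the mineralizing cultures with the same medium and no AEBSF. RNA was taken at 76 h, after 12 h of treatment, from 3 AEBSF cultures and 3 mineralizing cultures, 1 Affymetrix array each, so that beta-glycerol phosphate, from which the cells take the phosphate of mineral, was present in every culture. The labels name triplicate cultures of 1 line and do not say whether these were grown on separate occasions, so the spread between arrays may be technical.

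Non-fibrillar collagens differ from the fibril formers of bone in where their chains end up. Transmembrane collagens span the plasma membrane of the cell that makes them and can be released by proprotein convertases. Basement membrane collagens assemble into sheet-like networks, and the fibril-associated collagens with interrupted triple helices (FACITs) sit on the surface of fibrils made by other collagens, in tendon, ligament and the covering of bone. Type VI collagen forms microfilaments around cells and is assembled from different chains that must all be present.

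The value of a probe set is its MAS5 signal, an intensity on a linear scale in which every array has been scaled to the same overall level. It can be compared between arrays for 1 probe set, but not between probe sets. Probe sets whose mean log2 signal over the 6 arrays lay in the lowest 40% of the array, at a signal below 67.2, were not tested. This left 18625 probe sets, which stand for 9864 genes. Of 10 listed osteoblast markers 7 were measured, and 6 of them lay above this filter. The summed signal of the 7, most of it from Ibsp, ranged over 24707 to 25319 in AEBSF cultures and 25128 to 26504 in mineralizing cultures. Of the 6 above the filter, 1 fell, Phex, an endopeptidase gene of bone cells, at 1645 ± 72.9 with AEBSF and 2725 ± 77.9 in mineralizing cultures (SD, n = 3 each; limma adjusted p = 3.36e-05), and 5 did not pass. The remaining marker, Bglap, lay far below the filter and went the other way. Its signals were 4.45, 2.49 and 7.46 with AEBSF and 2.22, 1.41 and 2.23 in mineralizing cultures. Of all probe sets below the filter, 4.99% were higher on every AEBSF array. Of 7 measured macrophage markers 1 lay above the filter, Csf1r, whose signals overlapped between the groups, at 87.2 to 99.9 with AEBSF and 67.9 to 168 in mineralizing cultures. The sum over all 7 was 203 to 219 in AEBSF cultures and 275 to 345 in mineralizing cultures. Of 6 measured cartilage markers 3 lay above the filter, and the sum over all 6 was 470 to 481 in AEBSF cultures and 472 to 629 in mineralizing cultures. Of these 3, 1 fell, Hapln1, a link protein gene, at 233 ± 31.1 with AEBSF and 325 ± 23.2 in mineralizing cultures (SD, n = 3 each; limma adjusted p = 0.0309). A dimmer Hapln1 probe set had signals of 64.3, 28.4 and 42.7 with AEBSF and 140, 139 and 95.3 in mineralizing cultures. It lay below 67.2 on every AEBSF array and entered through its mineralizing values, so its p-value is not given. The remaining Hapln1 probe set did not pass (limma adjusted p = 0.11). The other 2 cartilage markers above the filter, Snorc and Acan, did not pass (limma adjusted p = 0.11 and 0.444). Snorc went the other way, at 85.8, 95.0 and 98.1 with AEBSF and 79.1, 55.2 and 44.2 in mineralizing cultures (log2 fold change 0.68). Phex, Bglap, Hapln1, Snorc and Acan were named after their values were seen. The part of any of these lists in the values below was not tested. Endothelial, muscle, fat and epithelial lists had 1, 1, 1 and 2 markers above the filter, with summed signals that overlapped between the groups.

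Promoters are shown for the chains above the filter that have one in the RefSeq table, and for Col4a1, whose start lies beside that of another chain of type IV collagen. Each runs 250 bases before to 50 bases after the annotated start, in rat assembly GRCr8, 5′ to 3′ on the gene's strand, and capitals mark a TATA box, a CCAAT box or a GC box on either strand, whose letters are given beside their counts further on.
Col13a1, chr20:30466751-30467050, minus strand: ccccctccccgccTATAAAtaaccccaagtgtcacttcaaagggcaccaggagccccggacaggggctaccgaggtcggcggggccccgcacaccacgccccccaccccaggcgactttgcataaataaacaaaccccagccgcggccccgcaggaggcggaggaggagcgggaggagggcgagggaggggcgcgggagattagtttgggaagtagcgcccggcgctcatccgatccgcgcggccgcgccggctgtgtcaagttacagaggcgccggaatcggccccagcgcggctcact
Col4a5, chrX:109907109-109907408, plus strand: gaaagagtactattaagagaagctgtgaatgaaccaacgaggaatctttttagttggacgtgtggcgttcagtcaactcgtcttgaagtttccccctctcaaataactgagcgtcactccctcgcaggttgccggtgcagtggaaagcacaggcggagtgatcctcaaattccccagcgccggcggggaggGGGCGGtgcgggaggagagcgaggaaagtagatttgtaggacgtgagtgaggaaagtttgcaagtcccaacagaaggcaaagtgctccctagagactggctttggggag
Col8a2, chr5:143870519-143870818, plus strand: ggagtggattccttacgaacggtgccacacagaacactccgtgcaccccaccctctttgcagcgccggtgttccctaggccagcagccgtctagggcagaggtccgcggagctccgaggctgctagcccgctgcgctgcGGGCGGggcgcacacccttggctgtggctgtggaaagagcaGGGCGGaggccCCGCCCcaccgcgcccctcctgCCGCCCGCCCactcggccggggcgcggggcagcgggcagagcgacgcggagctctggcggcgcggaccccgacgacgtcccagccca
Col4a1, chr16:84885347-84885646, plus strand: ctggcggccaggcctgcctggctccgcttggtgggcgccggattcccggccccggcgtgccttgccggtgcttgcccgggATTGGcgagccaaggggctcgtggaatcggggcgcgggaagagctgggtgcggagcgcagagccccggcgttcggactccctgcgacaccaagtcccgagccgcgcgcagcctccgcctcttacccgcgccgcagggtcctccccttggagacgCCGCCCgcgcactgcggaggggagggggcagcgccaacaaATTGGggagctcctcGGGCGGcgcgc

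The table held promoters for 5 of the 9 genes, the fifth being that of Col6a1. The TATA box, searched as TATAAA, was found in that of Col13a1 alone, and in 14.2% of all 33469 promoters of the same length. In Col13a1 the match began at base 14 of the window, far upstream of the annotated start, so it is a match of letters only. The GC box, searched as GGGCGG, was found in those of Col4a5, Col8a2 and Col4a1 and in 33.1% of all promoters, with 5 matches in Col8a2, of which those on the minus strand partly overlap. The CCAAT box, searched by the letters of its name, was found in that of Col4a1 and in 37.5% of all promoters. The ER stress response element was searched as a CCAAT box followed after 9 bases by CCACG. It was found in 0 of these 5 and in 0.0657% of all promoters. The unfolded protein response element, searched as TGACGTGG, was found in 0 of these 5 and in 0.595% of all. The Col4a1 window shares 176 bases with that of Col4a2, which is read from the opposite strand. GC content was 68.7% for Col13a1, 53.3% for Col4a5, 73.7% for Col8a2, 75.0% for Col4a1 and 59.7% for Col6a1, and the median of all promoters was 51.7%.

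With AEBSF the signals of the transmembrane, FACIT and type IV alpha 5 chains among the 9 genes were lower on all 3 arrays than on any mineralizing array, by 1.64- to 2.21-fold, and that of the type VIII chain by 1.33-fold. Other tested chains of the transmembrane and FACIT kinds, given below, did not pass. The chains of the ubiquitous type IV network and of type VI, Col4a1, Col6a1 and Col6a2, had signals below the filter, with overlapping groups. Of the 13 probe sets 7, of 6 genes, lay above the filter, and all 7 were lower on every AEBSF array, as were 16.5% of all tested probe sets. Since their falls helped to choose these genes, nothing is read from that count. Over the whole array, 7.41% of tested probe sets were lower and 5.99% higher with AEBSF at limma's adjusted p of 0.05, the threshold used for all other genes here. The second Col12a1 probe set averaged below 67.2 in the AEBSF cultures and entered through its mineralizing values. In cultures measured in bulk, fewer cells making a transcript and less of it in each cell cannot be told apart.

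Col13a1 encodes type XIII collagen, a transmembrane chain found where cells adhere to matrix and, in mice, at the neuromuscular junction. Its signals were 95.0, 101 and 103 in the AEBSF cultures and 232, 240 and 192 in the mineralizing cultures. The AEBSF arrays lay close together and the groups stood far apart. The means were 99.6 ± 4.18 and 221 ± 25.5 (SD, n = 3 each), a 2.21-fold lower signal with AEBSF (log2 fold change -1.15, SE 0.16).

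Col25a1 encodes type XXV collagen, the other transmembrane chain among the 9 genes, which in mice is needed for motor axons to innervate muscle. Its signals were 356, 279 and 376 with AEBSF and 571, 578 and 567 in mineralizing cultures. The mineralizing arrays were nearly level, and the spread lay in the AEBSF arrays, the second of which was lowest. The means of 337 ± 51.6 and 572 ± 5.55 (SD, n = 3 each) differed 1.71-fold (log2 fold change -0.77, SE 0.12).

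**Figure D1:**
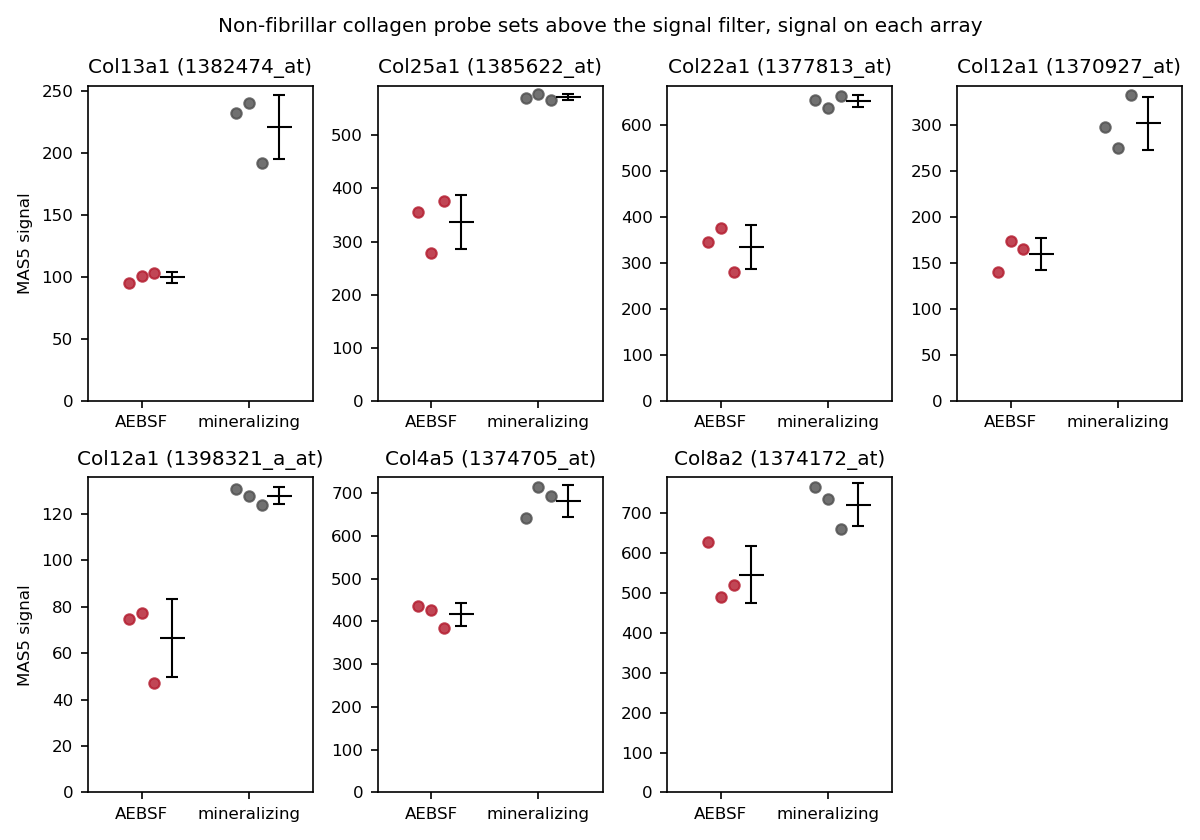
MAS5 signal on each array (points, 3 AEBSF and 3 mineralizing cultures) for the 7 probe sets above the signal filter, each panel with its own linear axis from 0, and the mean with its SD beside the points. In every panel the AEBSF arrays lie below the mineralizing arrays, by 2.21-fold for Col13a1 and by 1.33-fold for Col8a2.

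Both FACIT chains among the 9 genes had lower signals with AEBSF. Col22a1 encodes type XXII collagen, a FACIT of tissue junctions such as that of muscle and tendon. It had signals of 345, 375 and 281 with AEBSF and 654, 637 and 664 in mineralizing cultures. The groups did not overlap, and the third AEBSF array was lowest. The means were 334 ± 47.6 and 652 ± 13.5 (SD, n = 3 each; 1.97-fold lower, log2 fold change -0.98, SE 0.11).

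Col12a1 encodes type XII collagen, a FACIT bound to type I fibrils that osteoblasts and tendon cells make, and it was measured by 3 probe sets. The brightest had signals of 140, 174 and 165 with AEBSF and 298, 275 and 333 in mineralizing cultures, with means of 160 ± 17.7 and 302 ± 29.0 (SD, n = 3 each; log2 fold change -0.92, SE 0.14). The second had 74.9, 77.3 and 47.3 with AEBSF and 131, 128 and 124 in mineralizing cultures (log2 fold change -0.98, SE 0.24). Its groups did not overlap either, with the third AEBSF array well below the others. Without AEBSF culture 3 its log2 fold change was -0.75. The third lay below the filter at 8.87, 11.3 and 6.76 with AEBSF and 16.6, 14.7 and 38.9 in mineralizing cultures. All 3 probe sets of Col12a1 were thus lower on every AEBSF array. Among probe sets below the filter, 5.81% were lower and 4.99% higher on every AEBSF array.

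Col4a5 and Col8a2 are network-forming chains, and both had lower signals with AEBSF. Col4a5 encodes the alpha 5 chain of type IV collagen, mutated in Alport syndrome, which joins the alpha 3 and alpha 4 chains or the alpha 6 chain in the networks of particular basement membranes. Its signals were 435, 427 and 385 with AEBSF and 641, 714 and 692 in mineralizing cultures. The groups were well apart, with means of 416 ± 26.8 and 682 ± 37.5 (SD, n = 3 each; 1.64-fold lower, log2 fold change -0.72, SE 0.09).

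Col8a2 encodes the alpha 2 chain of type VIII collagen, known from the basement membrane of the corneal endothelium. Its signals were 627, 491 and 519 with AEBSF and 766, 735 and 661 in mineralizing cultures. The groups came close, with the first AEBSF array just under the third mineralizing array. The means were 546 ± 71.6 and 721 ± 53.7 (SD, n = 3 each; 1.33-fold lower, log2 fold change -0.41, SE 0.10). With each array left out in turn its log2 fold change ranged from -0.51 to -0.34.

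Among these genes Col13a1 and Col8a2 stood at the ends of the range. Ordered by log2 fold change from the largest fall among the 18625 tested probe sets, Col13a1 held rank 17, the Col12a1 probe sets ranks 56 and 77, Col22a1 rank 58, Col25a1 rank 159, Col4a5 rank 220 and Col8a2 rank 1208. Since falls helped to choose these genes, nothing is read from the ranks. The differences between the chains were not tested. No culture stood apart over the 7 probe sets: the median deviation from the group mean was 0.07, 0.04 and -0.06 on the log2 scale for AEBSF cultures 1, 2 and 3, and 0.01, 0.01 and -0.01 for mineralizing cultures 1, 2 and 3.

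The chains below the filter gave no such picture. Col4a1 encodes the alpha 1 chain of type IV collagen, present in nearly all basement membranes. The brighter of its probe sets had signals of 60.4, 72.0 and 75.0 with AEBSF and 42.1, 47.1 and 71.0 in mineralizing cultures, and the other had 36.7, 57.8 and 43.5 with AEBSF and 39.0, 45.8 and 63.8 in mineralizing cultures. The groups overlapped in both, with log2 differences of 0.40 and -0.10. Col4a2, its partner chain from the shared promoter region and not among the 9, also lay below the filter, at 68.0, 18.7 and 99.7 with AEBSF and 76.3, 89.0 and 103 in mineralizing cultures. Its groups overlapped too, with one low AEBSF array.

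Type VI collagen is built from the chains of Col6a1, Col6a2 and Col6a3 or a relative of the last. Col6a1 had signals of 18.0, 20.2 and 36.3 with AEBSF and 18.4, 11.7 and 14.8 in mineralizing cultures. The brighter Col6a2 probe set had 45.1, 44.3 and 11.3 with AEBSF, against 15.2, 24.4 and 14.2 in mineralizing cultures, and the other had 25.8, 32.0 and 11.6 with AEBSF, against 41.0, 10.1 and 4.19 in mineralizing cultures. The groups overlapped in all 3, and no direction is given for either gene. Arrays of 1 group differed widely at these signals, as the values of 4.19 and 41.0 among mineralizing cultures show.

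**Figure D2:**
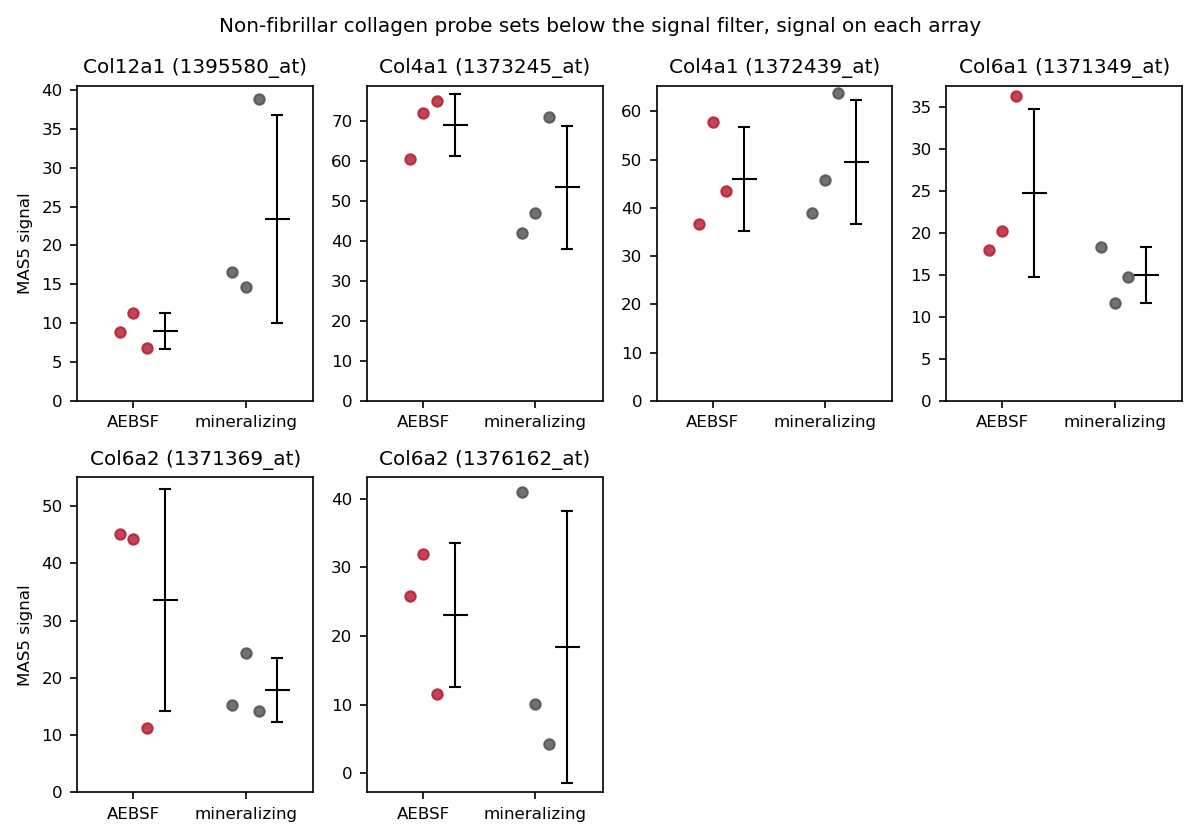
MAS5 signal on each array (points) for the 6 probe sets below the signal filter, each panel with its own linear axis, and the mean with its SD beside the points. The groups overlap for both probe sets of Col4a1 and of Col6a2 and for Col6a1, while the third Col12a1 probe set lies at 6.76 to 11.3 with AEBSF and at 14.7 to 38.9 in mineralizing cultures.

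The remaining chain of classical type VI collagen was bright enough to be tested. Col6a3, not among the 9 genes, had signals of 532, 503 and 548 with AEBSF and 996, 863 and 1071 in mineralizing cultures. It fell to 528 ± 22.7 with AEBSF, against 977 ± 105 in mineralizing cultures (SD, n = 3 each; limma adjusted p = 0.000184, with a log2 fold change of -0.88 ± 0.09 SE), and its second probe set fell by 0.77 on that scale (limma adjusted p = 0.0202). Whether its change differed from those of Col6a1 and Col6a2, which lay below the filter, was not tested.

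The neighbour of Col4a5 on the X chromosome, Col4a6, encodes the type IV chain that pairs with it. Its brighter probe set lay below the filter, at 34.4, 20.8 and 15.7 with AEBSF and 64.6, 73.0 and 39.5 in mineralizing cultures. These groups did not overlap, and those of its second probe set did (23.9 ± 15.4 with AEBSF and 29.5 ± 15.2 in mineralizing cultures; SD, n = 3 each). Col4a6 was singled out after its values were seen. Col4a4 was also below the filter, at 12.4 ± 5.58 with AEBSF and 10.9 ± 7.58 in mineralizing cultures.

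Col6a3 was the one gene that passed among the other non-fibrillar chains: of 21 measured, 5 were tested, 1 fell and 0 rose. The median log2 fold change of the list was -0.19. This list is what remained after the 9 genes were picked in part for their falls. Its count and median are therefore not set against theirs. Over all 9864 tested genes the median was 0.002, with 9.22% lower and 7.09% higher with AEBSF. Col9a2, a FACIT chain of cartilage, had signals of 104, 127 and 114 with AEBSF and 163, 130 and 121 in mineralizing cultures, which overlapped (limma adjusted p = 0.397). The FACIT genes Col14a1 and Col16a1 had log2 fold changes of -0.19 and -0.14 (SE 0.31 and 0.19; limma adjusted p = 0.731 and 0.662). Col23a1, a transmembrane collagen like Col13a1 and Col25a1, stood at 87.8 ± 3.41 with AEBSF and 99.9 ± 27.0 in mineralizing cultures (limma adjusted p = 0.73, with a log2 fold change of -0.15 ± 0.24 SE). Its 95% interval was wide in the plot of collagen probe sets, and its log2 fold change was 0.02 without mineralizing culture 1, so its value shows neither a fall nor its absence.

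Of 11 fibrillar chains measured 8 were tested, 5 fell and 0 rose, with a list median of -0.54. Col24a1, a fibrillar chain found in bone and cornea, fell to 591 ± 45.4 with AEBSF, against 1109 ± 24.7 in mineralizing cultures (SD, n = 3 each; limma adjusted p = 5.22e-05, with a log2 fold change of -0.91 ± 0.08 SE). Col5a2, which with Col5a1 makes type V collagen, fell by 0.40 (SE 0.05). The probe sets of Col5a1 disagreed: the brightest did not pass (limma adjusted p = 0.29, with a log2 fold change of -0.18 ± 0.11 SE), and the other fell by 0.80 (limma adjusted p = 0.00738). Col11a2 and Col27a1 did not pass (limma adjusted p = 0.48 and 0.26). Col1a2, Col11a1 and Col1a1, chains of the fibrils of bone and cartilage, fell by 1.13, 1.0 and 0.67 on the log2 scale.

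**Figure D3:**
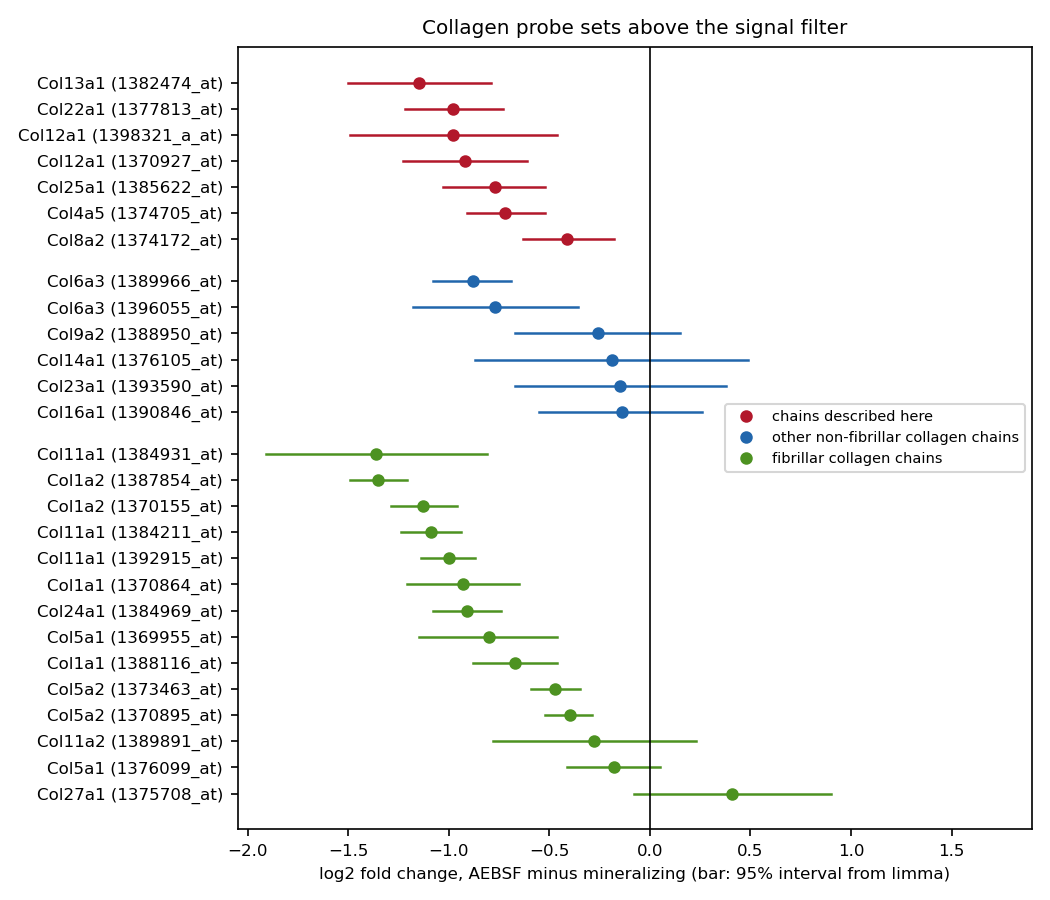
Log2 fold change of AEBSF minus mineralizing cultures with its 95% limma interval for each collagen probe set above the signal filter, in 3 colours for the chains described here, other non-fibrillar chains and fibrillar chains. The first group spans -1.15 for Col13a1 to -0.41 for Col8a2, and the fibrillar group reaches from -1.36 for a Col11a1 probe set to 0.41 for Col27a1.

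Laminins and other basement membrane proteins, which share a sheet with type IV collagen, also fell in part: of 13 tested 6 fell and 0 rose, with a list median of -0.32. Lama4, a laminin alpha chain of vessels and muscle, fell to 205 ± 34.8 with AEBSF, against 418 ± 36.3 in mineralizing cultures (SD, n = 3 each; limma adjusted p = 0.00101, with a log2 fold change of -1.04 ± 0.14 SE). The laminin chains Lamb1 and Lama5 fell by 0.72 and 0.47. Lamb2, singled out after its values were seen, fell by 0.33 (limma adjusted p = 0.0219), and Lamc1, the gamma chain that most laminins share, did not pass (3563 ± 112 with AEBSF and 3205 ± 71.7 in mineralizing cultures; limma adjusted p = 0.0753). Fbln1, which encodes fibulin 1, fell by 0.66, and Loxl2, an oxidase that crosslinks type IV collagen, by 0.34 (limma adjusted p = 0.0225 and 0.0472). The list's count was 3 without mineralizing culture 1 or 2 and 3 with a constant variance prior. Fbln1 did not pass when AEBSF culture 2 or 3 or mineralizing culture 1 or 2 was left out (limma adjusted p = 0.0558, 0.0565, 0.0514 and 0.104), nor did Lamb2 when AEBSF culture 2 or mineralizing culture 1 or 2 was (0.0594, 0.102 and 0.0809). Leaving out AEBSF culture 1 or 2 put Loxl2 at 0.0511 and 0.117, and leaving out mineralizing culture 1, 2 or 3 put it at 0.138, 0.138 and 0.0765. These values are for its brightest probe set. A dimmer probe set of Loxl2 fell by 0.62 on the log2 scale (limma adjusted p = 0.0264).

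Among receptors that bind collagen, 6 were tested, 1 fell and 1 rose. The discoidin domain receptors are receptor tyrosine kinases that collagen activates. Ddr2, the form of connective tissue cells, fell to 2700 ± 129 with AEBSF, against 3823 ± 308 in mineralizing cultures (SD, n = 3 each; limma adjusted p = 0.000879, with a log2 fold change of -0.50 ± 0.07 SE). Of its other probe sets 1 fell by 0.61 and 1 did not pass (limma adjusted p = 0.000359 and 0.155). Ddr1, the epithelial form that type IV collagen also activates, rose, with signals of 330, 341 and 310 with AEBSF against 230, 249 and 219 in mineralizing cultures (limma adjusted p = 0.0176, with a log2 fold change of 0.49 ± 0.12 SE). Ddr1 did not pass when AEBSF culture 1 or 2 or mineralizing culture 1 or 3 was left out (limma adjusted p = 0.0522, 0.0512, 0.0603 and 0.0572), nor under the scaling to hybridization controls (0.139). Its other probe set, at 0.10 on the log2 scale, did not pass (limma adjusted p = 0.818). The integrin chains Itga1 and Itgb1, named after their values were seen, had log2 fold changes of -0.40 and -0.03 (limma adjusted p = 0.223 and 0.738).

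None of the tested enzymes that release or trim collagens passed. Of 6 genes tested in this list 1 fell, the enhancer gene Pcolce, and 0 rose. Furin, a convertase known to cut transmembrane collagens from the cell surface, stood at 222 ± 38.2 with AEBSF and 180 ± 23.8 in mineralizing cultures (SD, n = 3 each; limma adjusted p = 0.276, with a log2 fold change of 0.30 ± 0.17 SE). The convertases Pcsk6 and Pcsk7 had log2 fold changes of -0.05 and -0.11 (limma adjusted p = 0.621 and 0.574). Pcolce, an enhancer of procollagen trimming, fell by 0.27 (limma adjusted p = 0.0461), and it did not pass when AEBSF culture 2 or 3 was left out (limma adjusted p = 0.133 and 0.111) or mineralizing culture 1, 2 or 3 was (0.105, 0.105 and 0.122). It did not pass either with median centring, no signal filter or a constant variance prior (0.0865, 0.0916 and 0.167), and no gene of the list fell when a gene's probe sets were averaged. These are transcript levels and say nothing of enzyme activity. AEBSF inhibits serine proteases, and whether it acted on any enzyme of this list was not measured.

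Genes that modify, fold and export collagen chains in the endoplasmic reticulum fell in 9 of 20 tested cases and rose in 0, with a list median of -0.18. Fkbp14, a prolyl isomerase of the endoplasmic reticulum known to bind collagens, had the largest change among the tested genes of the list, falling to 316 ± 33.8 with AEBSF, against 631 ± 15.3 in mineralizing cultures (SD, n = 3 each; limma adjusted p = 0.000179, with a log2 fold change of -1.0 ± 0.10 SE). The hydroxylase genes P4ha2, Plod2 and Plod1 fell by 0.58, 0.44 and 0.39, and Sec24d, a coat subunit of export vesicles, by 0.31. Serpinh1, the chaperone specific to collagen, and P4hb, the shared subunit of the prolyl hydroxylases, were named after their values were seen. They stood at 5694 ± 425 and 10445 ± 539 with AEBSF, against 5514 ± 340 and 10477 ± 401 in mineralizing cultures (limma adjusted p = 0.7 and 0.965). The count of falls was 4 and 5 without mineralizing cultures 2 and 1, and 3 with a constant variance prior. Sec24d did not pass when mineralizing culture 2 was left out (limma adjusted p = 0.0698).

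Of other proteins with a collagen helix, 3 were tested. Colec12, a scavenger receptor of the cell membrane with a collagen-like stalk, fell to 902 ± 27.9 with AEBSF, against 1202 ± 41.7 in mineralizing cultures (SD, n = 3 each; limma adjusted p = 0.00226, with a log2 fold change of -0.41 ± 0.07 SE). Scara3, of the same receptor class, and Colq, the collagen tail of acetylcholinesterase, did not pass (limma adjusted p = 0.0999 and 0.935). Scara3 did without mineralizing culture 3 and under the scaling to hybridization controls (limma adjusted p = 0.0344 and 0.0258). Of 10 listed partners of types VI and XII collagen, 2 were tested, Fmod and Matn2, and neither passed in limma (adjusted p = 0.813 and 0.548). Dcn, the small proteoglycan decorin, lay below the filter, at 14.8, 14.5 and 52.4 with AEBSF and 56.7, 52.5 and 63.8 in mineralizing cultures. It was lower on every AEBSF array, the third only just, as were 5.81% of all probe sets below the filter. The 7 others were below the filter or not analysed here.

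**Figure D4:**
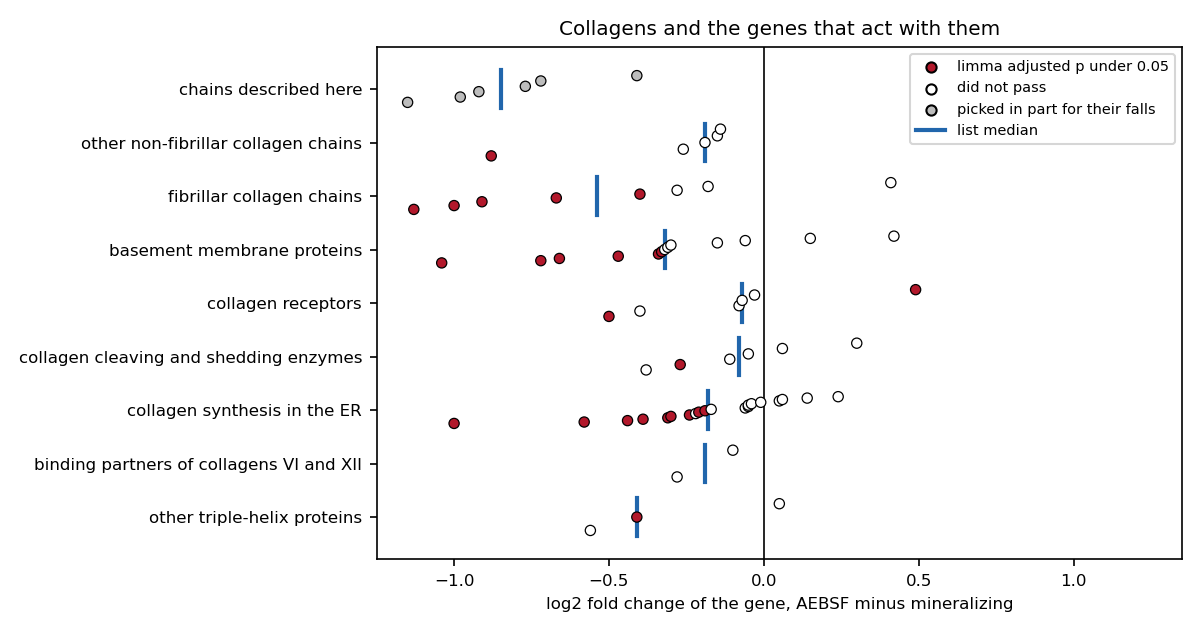
Log2 fold change of AEBSF minus mineralizing cultures for each tested gene (1 point a gene, by its brightest probe set) in each list, red where limma's adjusted p was under 0.05, white where not, and grey for the genes picked in part for their falls, with the list median as a blue bar. The grey genes have a median of -0.85, the fibrillar chains of -0.54 and the basement membrane proteins of -0.32.

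Genes elsewhere on the array had profiles close to these chains. Likeness was the root mean square distance between log2 signals, each centred on its own mean, over the 6 arrays. Since each chain falls between the groups, a near gene is one that falls by a like amount, and nothing is said of shared function. For Col13a1 the nearest were Pdia4, Nrn1 and Nucb2, at distances of 0.109, 0.150 and 0.150. For Col25a1 they were Slco3a1, Smarca1 and Ypel5, at 0.036, 0.074 and 0.077. Slco3a1, an organic anion transporter gene, had signals of 213 ± 25.7 with AEBSF and 366 ± 8.50 in mineralizing cultures, so that its spread, as for Col25a1, lay in the AEBSF arrays. For Col22a1 they were Aldoc, Scn1a and the fibrillar chain Col24a1, at 0.069, 0.082 and 0.096. For Col12a1 they were Trim30d, Manba and Mpnd, at 0.066, 0.072 and 0.093. For Col4a5 they were Nrep, Ccpg1 and C8g, at 0.064, 0.066 and 0.067, and for Col8a2 they were Abhd1, Prmt2 and Syvn1, at 0.039, 0.042 and 0.054. Of these 18 near genes 1, Col24a1, was a collagen.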

How the data were processed

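The deposited values are intensities, MAS5 signals for each probe set on each array, and the submitters' processing notes name GCOS as the software. Its version, detection calls and scaling target were not given in the sources used here. Without the lowest and highest 2%, the mean was 500.15 or 500.16 on all 6 arrays, so total RNA per cell cannot be read. Names came from a platform annotation, updated by Entrez identifier to RefSeq (GRCr8). Promoters are RefSeq's.

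Log2 signals were fitted in R 4.3.3 with limma 3.58.1 (lmFit, eBayes with trend) for AEBSF minus mineralizing, over the 18625 non-control probe sets above the 40th percentile of mean log2 signal, with Benjamini-Hochberg adjustment over all of them. The pipeline was tested on simulated data. A gene is its probe set of highest mean log2 signal. The 9 genes and all lists were chosen with earlier results of these data known. Genes named: the 9; every tested other non-fibrillar chain; per other list up to 5 called by size of change, or with fewer than 2 called up to 3 of highest signal; the 3 nearest in profile of each of the 9 that was tested; Col1a1, Col1a2, Col11a1, Furin, Col4a2 and Col6a3; and those marked as named after their values were seen. Replicates of 1 number did not deviate together across groups (r of 0.011, -0.119 and -0.036 over tested probe sets).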

Additional observations from a re-analysis of the deposited data

How the results depend on the processing

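The 7 non-fibrillar collagen probe sets were chosen in part by their falls, so no stability is read from them. Of these 7, 4 lay above a filter at the 60th percentile. Of the related genes, 24 fell and 1 rose. With a constant variance prior 14 fell, and leaving out 1 array each 15 to 23 fell and 0 to 2 rose. When arrays were scaled to hybridization controls, or a gene's probe sets were averaged, 0 rose. The first of these put the median over all tested genes at -0.144 on the log2 scale, against 0.002 as deposited. It changed the 1380 lower and 1115 higher probe sets to 2457 lower and 119 higher, and the collagen falls are larger by that shift there. A constant variance prior gave 600 lower and 285 higher, and no signal filter 710 higher. Leaving out 1 array each gave 712 to 1255 lower and 488 to 995 higher. With the replicate block the counts were 20 related genes lower and 1 higher, and 1038 lower and 764 higher over all, and Loxl2 and Pcolce did not pass. The labels do not say whether cultures of 1 replicate number were paired, and weak correlations over 3 arrays a group cannot decide it. Of the genes that did not pass, 6 changed sign when 1 array was left out, with log2 fold changes of -0.21 to 0.22 for Colq, -0.20 to 0.02 for Fmod, -0.39 to 0.02 for Col23a1, -0.49 to 0.01 for Matn2, -0.04 to 0.04 for P4hb and -0.06 to 0.01 for Itgb1. Colq and Serpinh1 stood at -0.10 with hybridization scaling. The cause was not tested in any of these. Low signal limits Col4a1, Col6a1 and Col6a2, and 3 arrays a group limit the rest.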
